A study of Mus musculus with 12 samples.

Results

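The genes described here carry glucose from the blood into the cell and on to pyruvate and the mitochondrion: glucose transporters, the enzymes of glycolysis and their regulators, lactate dehydrogenase, the mitochondrial pyruvate carrier, and the pyruvate dehydrogenase complex with its kinases. They were listed by name, 35 mouse genes in all, and 30 of them were measured by 55 transcript clusters (sets of probes designed to 1 transcript) that carry a single gene symbol, of 18820 genes measured in all. Eno1, Gpi1, Mpc2 and Pfkfb1 were not analysed here, and Pdha1 was found only on transcript clusters that also carry a neighbouring gene's symbol, so it is not reported. RNA came from heart and cerebrum of humanized knock-in mice, C57BL/6J, that model familial dysautonomia, a hereditary neuropathy that affects mainly the sensory and autonomic systems, and every array carries the same genotype label, IKBKAP FDloxP/+. The 4 groups, with 3 arrays each, were heart of mice given phosphatidylserine (PS), heart of mice given medium-chain triglycerides (MCT), the vehicle, and cerebrum of PS and of MCT mice. Gavage began at 4 months of age and was repeated on alternate days for 3 months, with PS at 200 mg/kg in 100 µl, and the series asks what PS does to gene expression. The labels conflict: the series text speaks of 6 model mice, the growth protocol of 3 model and 3 wild-type mice, and source names give the dose per day. No group without MCT or PS was analysed here, so PS is always set against MCT, itself a source of fatty acids.

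Glycolysis splits glucose into pyruvate, which is either reduced to lactate or carried into the mitochondrion and oxidised by the pyruvate dehydrogenase complex. The kinases of that complex switch it off. Several steps have isozymes from separate genes: Slc2a4 (GLUT4) is the insulin-responsive glucose transporter of muscle and fat, whereas Slc2a1 (GLUT1) serves the blood-brain barrier and Slc2a3 (GLUT3) neurons. Adult heart draws most of its energy from fatty acids and oxidises pyruvate and lactate as well, whereas brain relies mainly on glucose.

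All values are log2 intensities as deposited, and all differences are on that scale, where 1 is a doubling. Tests were limma's, with Benjamini-Hochberg adjustment over all transcripts tested and a threshold of 0.05 (adjusted p). Intensities of different probes are not comparable as levels, so genes were compared through their differences between groups. Array medians ran between 4.89 and 5. Neuronal markers averaged 5.07 to 5.36 in the hearts and 10.60 to 10.94 in the cerebra, and ventricular muscle markers 12.10 to 12.30 in the hearts and 6.16 to 6.36 in the cerebra, as the tissue labels say. Xist, which is transcribed from the inactive X chromosome of females, read 8.92 to 9.86 on the 3 PS heart arrays and on PS cerebrum arrays 1 and 3, and 3.32 to 4.03 on PS cerebrum array 2 and on all 6 MCT arrays. Sex pattern and treatment thus cannot be told apart in heart, and in cerebrum only PS array 2 has the pattern of the MCT arrays. Of the cerebrum arrays, PS 1 and 2 also stood apart in striatal markers, which averaged 6.75, 6.85 and 8.76 in PS cerebra, against 9.43, 9.60 and 9.44 in MCT cerebra. In heart, MCT array 3 had the highest level of the atrial light chain gene Myl7, 8.53, followed by 6.80 on PS array 3, while the other 4 heart arrays read 4.16 to 5.08. In tissue RNA, fewer cells of a type and less RNA per cell cannot be told apart.

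At several steps, heart and cerebrum differed in which isozyme had the higher RNA signal relative to the other tissue. In MCT mice, 15 of the 30 members were higher in heart and 8 were lower, against 34.2% and 42% of all 11214 genes tested. In PS mice, whose arrays are separate from those, 18 were higher and 8 lower, against 37.6% and 39.1% of 11216 genes. The median difference of the members was 0.42 in MCT mice and 0.66 in PS mice, beside -0.13 and -0.01 over all genes. The 15 members higher and the 8 lower in MCT mice were also past the threshold in the same direction in PS mice, where Tpi1, Pfkl and Pgk1 joined the higher ones. Tpi1 was past it in MCT mice as well on its second transcript cluster. In both, Hk2 passed the filter on low values only through heart and Eno2 and Pfkfb4 only through cerebrum, as did Slc2a4 through heart in PS mice, so these had to differ and add nothing to the counts. With over 3 in 4 genes differing between the tissues (76.2% and 76.6%), the number of members called is near the background, and the pattern lies in which members they are.

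The glucose transporters were split between the tissues. Slc2a4 read 10.74, 10.54 and 10.77 in PS hearts and 10.25, 10.43 and 10.79 in MCT hearts, against 5.54, 4.56 and 5.15 in PS cerebra and 5.50, 5.57 and 5.48 in MCT cerebra. The mean of Slc2a4 in heart was 5.60 above that in cerebrum in PS mice, given as a description, since it passed the filter there only through heart. In MCT mice it was higher in heart by 4.97 ± 0.15 (SE, limma adjusted p = 1.18e-08). Slc2a3 ran the other way, with 5.07, 5.72 and 5.40 in PS hearts and 5.14, 5.48 and 5.38 in MCT hearts, against 9.49, 9.52 and 9.47 in PS cerebra and 9.27, 9.20 and 9.59 in MCT cerebra. Its difference was -4.10 ± 0.16 in PS mice and -4.02 ± 0.15 in MCT mice. The groups of the 2 tissues lay far apart for both genes. Slc2a1 was also lower in heart, at 8.82, 9.15 and 8.88 in PS hearts and 7.90, 8.37 and 8.63 in MCT hearts, against 10.63, 10.53 and 10.57 in PS cerebra and 9.93, 9.92 and 10.11 in MCT cerebra. Its difference was -1.63 ± 0.11 in PS mice and -1.69 ± 0.18 in MCT mice, the smallest of the 3.

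The first phosphorylation of glucose is done by hexokinases. Hk2, the insulin-regulated isozyme of muscle, read 8.63, 8.71 and 8.79 in PS hearts and 7.98, 8.15 and 9.12 in MCT hearts, and no more than 4.50 on any cerebrum array, below the filter on low values. Its mean in heart was 4.35 above that in cerebrum in PS mice and 4.06 in MCT mice, given as a description. Hk1, the general isozyme, differed by -0.02 in PS mice (95% interval -0.23 to 0.20) and by -0.39 in MCT mice (-0.82 to 0.05), neither past the threshold. With the replicate number as a block, Hk1 was past it in MCT mice (adjusted p = 0.0403), as it was without MCT heart array 3.

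Phosphofructokinase, the committed step, has 3 subunits. Pfkm, the muscle subunit, was higher in heart by 0.99 ± 0.10 in PS mice and 0.75 ± 0.14 in MCT mice. Pfkp, the platelet-type subunit abundant in brain, read 8.01, 8.95 and 7.70 in PS hearts and 7.50, 7.83 and 7.32 in MCT hearts, against 10.09, 9.94 and 10 in PS cerebra and 9.97, 9.68 and 9.95 in MCT cerebra. It was lower in heart by -1.79 ± 0.29 in PS mice and -2.32 ± 0.16 in MCT mice. Pfkl, the liver-type subunit, differed by 0.48 ± 0.15 in PS mice (adjusted p = 0.0209) and by -0.00 ± 0.18 in MCT mice (adjusted p = 0.988). The call in PS mice was lost without PS heart array 2 or 3 or PS cerebrum array 2. The PFKFB enzymes set the level of fructose 2,6-bisphosphate, which activates phosphofructokinase. Pfkfb2, the form that is phosphorylated and activated in heart, was higher there by 1.26 in PS mice and 1.06 in MCT mice. Pfkfb3, the form with the highest kinase over phosphatase activity, was lower in heart by -0.81 and -0.72, and Pfkfb4 by -0.85 and -1.06. In heart, Pfkfb4 lay near or below the filter on low values (4.54 to 5.36).

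Below the splitting of fructose bisphosphate, the sharpest contrast was between paired isozymes. Phosphoglycerate mutase is made from Pgam1 in most tissues and from Pgam2 in muscle. Pgam2 read 10.87, 10.80 and 10.79 in PS hearts and 10.99, 11.02 and 10.82 in MCT hearts, against 5.52, 4.89 and 5.98 in PS cerebra and 6.08, 5.97 and 5.88 in MCT cerebra, a difference of 5.36 ± 0.25 in PS mice and 4.97 ± 0.11 in MCT mice. Pgam1 read 9.66, 9.93 and 9.79 in PS hearts and 9.17, 9.38 and 9.24 in MCT hearts, against 11.02, 10.83 and 10.89 in PS cerebra and 10.97, 10.96 and 10.94 in MCT cerebra, a difference of -1.12 ± 0.10 in PS mice and -1.69 ± 0.11 in MCT mice. Every heart array was thus above every cerebrum array for Pgam2 and below for Pgam1. Enolase, the next enzyme, divides further. Eno3, the muscle isozyme, read 12.16, 12.06 and 12.09 in PS hearts and 11.87, 11.99 and 11.91 in MCT hearts, against 5.97, 5.22 and 5.48 in PS cerebra and 6.13, 6.06 and 5.69 in MCT cerebra. Eno2, the neuronal isozyme, read 5.05, 5.21 and 5.11 in PS hearts and 4.55, 4.75 and 4.45 in MCT hearts, against 11.45, 11.35 and 11.36 in PS cerebra and 11.52, 11.46 and 11.49 in MCT cerebra. The difference of Eno3 was 6.55 ± 0.18 in PS mice and 5.96 ± 0.14 in MCT mice. That of Eno2, which passed the filter only through cerebrum, was -6.26 and -6.91, given as a description. These were the members with the largest differences in each direction. Eno2 in heart and Slc2a4, Eno3 and Pgam2 in cerebrum lay near or below the filter on low values, so the sizes are approximate.

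Several other enzymes of glycolysis differed less. Gapdh, glyceraldehyde phosphate dehydrogenase, lay between 12.55 and 12.77 on all 12 arrays, with a difference of 0.04 in PS mice (95% interval -0.14 to 0.22) and -0.05 in MCT mice (-0.29 to 0.18). Aldoa, the aldolase of muscle and most other tissues, differed by 0.20 (0.01 to 0.40, adjusted p = 0.0544) and 0.01 (-0.25 to 0.28), and Pkm, pyruvate kinase of muscle and brain, by 0.01 (-0.20 to 0.22) and -0.15 (-0.47 to 0.17), with Pkm past the threshold in MCT mice without MCT heart array 3. Tpi1, triosephosphate isomerase, was higher in heart in PS mice, by 0.47 (adjusted p = 0.00377), and 0.22 in MCT mice was not past the threshold (adjusted p = 0.0781). With an intensity trend or array weights it was past it in MCT mice too. Its second transcript cluster was higher in heart in both, by 0.66 in PS mice and 0.61 in MCT mice (limma adjusted p = 0.000228 and 0.00103). Pgk1, phosphoglycerate kinase, was higher by 0.27 in PS mice (adjusted p = 0.0230) and differed by 0.13 in MCT mice (adjusted p = 0.261). The call of Pgk1 in PS mice was lost with quantile normalization and without array 1 or 3 of either tissue. Gapdh was represented by 17 transcript clusters, Pgk1 and Pgam1 by 3 each, and Tpi1, Pkm, Ldhb, Pdhb and Mpc1 by 2 each. These genes have near-identical processed copies in the genome, so which locus a probe reads is uncertain. Of the 17 for Gapdh, 5 in PS mice and 1 in MCT mice were past the threshold, all higher in heart and by at most 0.32, so that Gapdh was close in both tissues by any of them.

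The fate of pyruvate showed a common direction. Both lactate dehydrogenase genes were higher in heart: Ldha, the muscle-type subunit, by 0.83 in PS mice and 0.61 in MCT mice, and Ldhb, the heart-type subunit, by 0.83 and 0.90. The measured genes of the pyruvate dehydrogenase complex, 4 of 4, were all higher in heart. Pdhb, which encodes the beta subunit of its first enzyme, read 8.40, 8.25 and 8.36 in PS hearts and 8.58, 8.52 and 8.34 in MCT hearts, against 6.39, 6.50 and 6.52 in PS cerebra and 6.94, 6.79 and 6.79 in MCT cerebra. Dld, the lipoamide dehydrogenase that it shares with other complexes, read 10.63, 10.34 and 10.45 in PS hearts and 10.25, 10.39 and 10.37 in MCT hearts, against 8.45, 8.56 and 8.35 in PS cerebra and 8.70, 8.69 and 8.78 in MCT cerebra. Pdhx, the binding protein, read 8.85, 8.58 and 8.51 in PS hearts and 8.58, 8.82 and 8.94 in MCT hearts, against 7.01, 7.09 and 6.86 in PS cerebra and 6.99, 6.86 and 7.06 in MCT cerebra. The tissues did not overlap for any of these. The differences were 1.87 and 1.64 for Pdhb, 2.02 and 1.61 for Dld, 1.66 and 1.81 for Pdhx, and 1.60 and 1.37 for Dlat, the acetyltransferase, in PS and in MCT mice. Mpc1, a subunit of the pyruvate carrier, was higher by 1.37 and 1.36.

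The kinases that inactivate the complex were split. Pdk1 read 9.02, 9.08 and 8.95 in PS hearts and 9.21, 9.13 and 9.36 in MCT hearts, against 7.38, 7.41 and 7.22 in PS cerebra and 7.23, 7.04 and 7.20 in MCT cerebra, a difference of 1.68 ± 0.09 in PS mice and 2.08 ± 0.12 in MCT mice. Pdk2 was higher in heart by 1.56 in PS mice and 1.55 in MCT mice. Pdk3 read 5.74, 5.93 and 5.66 in PS hearts and 5.43, 5.50 and 5.30 in MCT hearts, against 8.49, 8.53 and 8.32 in PS cerebra and 8.57, 8.51 and 8.52 in MCT cerebra, a difference of -2.67 ± 0.11 in PS mice and -3.12 ± 0.11 in MCT mice. Heart was therefore above cerebrum for Pdk1 and Pdk2 and below it for Pdk3. Pdk4, a further kinase outside the list, read 10.4 to 11.28 in the hearts and 6.95 to 7.69 in the cerebra.

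**Figure D1:**
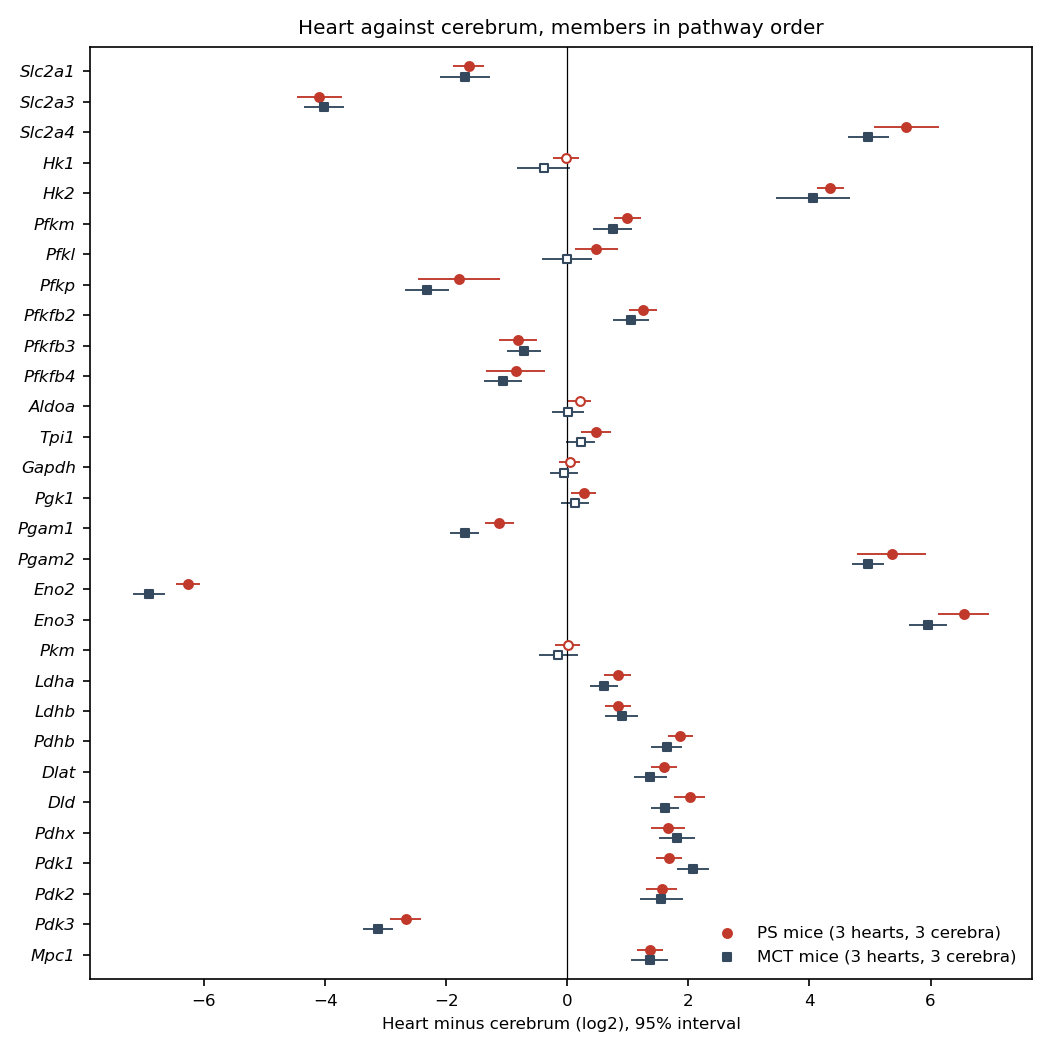
Difference heart minus cerebrum (log2, x axis) for the 30 measured members in pathway order (y axis), with 95% intervals from limma. Red circles are PS mice and dark squares MCT mice (3 hearts and 3 cerebra each), and filled marks are past adjusted p 0.05. Eno3, Slc2a4, Pgam2 and Hk2 lie far to the right and Eno2, Slc2a3 and Pdk3 far to the left in both, while Gapdh, Pkm and Hk1 lie near 0. Hk2, Eno2 and Pfkfb4, and Slc2a4 in PS mice, passed the filter on low values only through heart or only through cerebrum.

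Promoter windows of 250 bases before to 50 after the transcription start were available for 33 of the 35 members (52 windows, RefSeq, GRCm38.p6). The letters ACGTG, the core of the hypoxia response element, stood on either strand in 36.5% of the members' windows, beside 19.6% of all 32851 windows. The letters GGGCGG, a binding motif of Sp1-type factors, stood on either strand in 51.9%, beside 35.7%. The letters TATAAA, which bind the basal transcription machinery, stood on either strand in 5.77%, beside 13.6%. ACGTG also lies within the longer CACGTG of E-boxes, and windows of 1 gene can overlap. The windows below are those of 2 isozyme pairs with opposite tissue patterns, Pgam1 with Pgam2 and Eno2 with Eno3, and of Slc2a1 and Pdhb, the members that differed between PS and MCT in cerebrum. Other isozymes of opposite pattern, such as Pfkm and Pfkp or Pdk1 and Pdk3, are not shown. Each reads 5′ to 3′ on the gene's own strand, and capitals mark matches of the 3 motifs on either strand. They lie at chr19:41911621-41911920, plus strand (Pgam1), chr11:5803747-5804046, minus strand (Pgam2), chr6:124769624-124769923, minus strand (Eno2), chr11:70656926-70657225, plus strand (Eno3), chr4:119108495-119108794, plus strand (Slc2a1), and chr14:8172943-8173242, minus strand (Pdhb).
Pgam1: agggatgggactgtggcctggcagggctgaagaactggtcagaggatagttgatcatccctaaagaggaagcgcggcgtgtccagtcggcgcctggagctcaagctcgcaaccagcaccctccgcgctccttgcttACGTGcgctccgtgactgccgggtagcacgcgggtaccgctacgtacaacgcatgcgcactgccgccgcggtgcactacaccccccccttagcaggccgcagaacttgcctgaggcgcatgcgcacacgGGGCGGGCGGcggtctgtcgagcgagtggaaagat
Pgam2: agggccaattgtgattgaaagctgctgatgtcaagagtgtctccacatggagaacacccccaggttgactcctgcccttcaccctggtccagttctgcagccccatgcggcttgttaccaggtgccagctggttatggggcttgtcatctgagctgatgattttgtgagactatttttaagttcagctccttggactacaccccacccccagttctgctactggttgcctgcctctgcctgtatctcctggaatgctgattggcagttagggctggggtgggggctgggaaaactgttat
Eno2: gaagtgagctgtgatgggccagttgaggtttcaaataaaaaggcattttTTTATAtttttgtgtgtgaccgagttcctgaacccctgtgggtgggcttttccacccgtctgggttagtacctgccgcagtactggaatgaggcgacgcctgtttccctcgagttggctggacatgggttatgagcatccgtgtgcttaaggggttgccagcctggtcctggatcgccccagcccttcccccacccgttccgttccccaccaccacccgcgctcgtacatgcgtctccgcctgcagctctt
Eno3: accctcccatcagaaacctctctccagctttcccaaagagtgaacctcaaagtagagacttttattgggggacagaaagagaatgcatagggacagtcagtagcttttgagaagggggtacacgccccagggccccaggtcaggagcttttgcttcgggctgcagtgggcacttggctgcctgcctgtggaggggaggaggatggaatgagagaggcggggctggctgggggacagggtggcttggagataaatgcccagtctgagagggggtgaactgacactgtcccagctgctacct
Slc2a1: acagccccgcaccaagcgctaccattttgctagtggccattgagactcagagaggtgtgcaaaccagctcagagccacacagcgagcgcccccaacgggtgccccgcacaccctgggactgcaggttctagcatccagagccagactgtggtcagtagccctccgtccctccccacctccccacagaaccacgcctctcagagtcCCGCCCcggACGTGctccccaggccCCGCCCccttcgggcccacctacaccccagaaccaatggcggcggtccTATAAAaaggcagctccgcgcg
Pdhb: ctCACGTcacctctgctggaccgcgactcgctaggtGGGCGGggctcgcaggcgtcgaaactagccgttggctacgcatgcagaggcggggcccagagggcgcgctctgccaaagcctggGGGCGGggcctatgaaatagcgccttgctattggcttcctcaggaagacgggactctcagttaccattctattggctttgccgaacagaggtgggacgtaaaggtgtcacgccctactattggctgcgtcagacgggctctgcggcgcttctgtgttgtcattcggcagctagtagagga
The window of Pgam1 holds 1 ACGTG and 2 overlapping GGGCGG, that of Slc2a1 holds 1 ACGTG, 2 GGGCGG and 1 TATAAA, and that of Pdhb holds 1 ACGTG and 2 GGGCGG. The windows of Pgam2 and Eno3, the muscle isozymes, hold none of the 3 motifs, and that of Eno2 holds 1 TATAAA. A match describes letters, and no binding was measured here.

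In cerebrum, few of these genes differed between PS and MCT. Of 29 members tested, 1 was higher and 1 lower, against 1.94% and 3.92% of the 11232 genes tested (5.86% in either direction), and Hk2 was below the filter. An unadjusted p under 0.05 was found for 7 members (29.3% of all genes), and the PS and MCT arrays did not overlap for 5 members that were higher and 5 that were lower (12.9% and 20.3% of all genes). The median difference of the members was -0.01, beside -0.02 over all genes. The members as a group therefore stood near the background of this comparison.

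The gene that was higher was Slc2a1. It read 10.63, 10.53 and 10.57 in PS cerebra, against 9.93, 9.92 and 10.11 in MCT cerebra, so all 3 PS arrays lay above all MCT arrays. The difference was 0.59 ± 0.09 (limma adjusted p = 0.0239, 95% interval 0.39 to 0.79). On PS array 2 alone, which shares the sex pattern of the MCT arrays, the difference was 0.54, a value of 1 array with no spread of its own. Slc2a1 is the transporter of brain endothelium, and the endothelial markers averaged 6.96, 7.13 and 6.54 in PS cerebra, against 6.51, 6.32 and 6.79 in MCT cerebra, with 8 of 8 differences positive, 0 past the threshold and 3 at an unadjusted p under 0.05. PS array 3 had the lowest endothelial mean of the PS cerebra, 6.54, and Slc2a1 at 10.57 there. The part of vessels in the difference was not tested. With the striatal marker mean as a covariate the difference was 0.57 and not past the threshold (adjusted p = 0.406), and leaving out MCT array 1, MCT array 2 or PS array 1 also ended the call, at 0.56 to 0.65 over all 6 omissions.

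The gene that was lower was Pdhb, at 6.39, 6.50 and 6.52 in PS cerebra, against 6.94, 6.79 and 6.79 in MCT cerebra. The arrays did not overlap, and the difference was -0.37 ± 0.08 (adjusted p = 0.0472, 95% interval -0.56 to -0.18). It was close to the threshold: the call held in 1 of 6 omissions of an array, that of PS array 3, and was lost with the striatal covariate (-0.30, adjusted p = 0.554). Dld, of the same complex, read 8.45, 8.56 and 8.35 in PS cerebra, against 8.70, 8.69 and 8.78 in MCT cerebra, with no overlap, but its difference of -0.27 was not past the threshold (adjusted p = 0.0902). Mpc1 read 10.16, 10.07 and 9.98 in PS cerebra, against 10.33, 10.45 and 10.21 in MCT cerebra, again without overlap and not past it (-0.26, adjusted p = 0.120), and its second transcript cluster differed by -0.05. Dlat (-0.03) and Pdhx (0.02), the other subunits, had intervals of -0.25 to 0.19 and -0.20 to 0.24. Oligodendrocyte markers averaged 7.82, 8.09 and 8.20 in PS cerebra and 8.85, 9.04 and 8.37 in MCT cerebra. They were thus lower with PS as a group, as were the striatal markers. Among the PS cerebra, both marker means and Pdhb rose from array 1 to array 3, where Dld and Mpc1 were lowest, 8.35 and 9.98. Among the MCT cerebra, Pdhb was highest on array 1 and both marker means on array 2. The part of these markers was not tested.

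Pfkfb3 read 6.78, 7.11 and 6.77 in PS cerebra, against 6.41, 6.52 and 6.43 in MCT cerebra. All PS arrays lay above the MCT arrays, and the difference of 0.43 ± 0.11 was just short of the threshold (adjusted p = 0.0575). PS array 2 was the highest of the PS cerebra. The muscle-type genes Slc2a4, Pgam2 and Eno3 had differences of -0.43, -0.51 and -0.40, none past the threshold, and each had its lowest cerebrum value on PS array 2 (4.56, 4.89 and 5.22). Set alone against the 3 MCT cerebra and assumed to vary like them, PS array 2 put 2 members past the threshold in each direction, against 4.17% and 5.97% of all genes (10.1% in either direction). That split was chosen after seeing the data and rests on 1 array, so no p is given for its members. The arrays split on these low genes within the PS group itself.

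**Figure D2:**
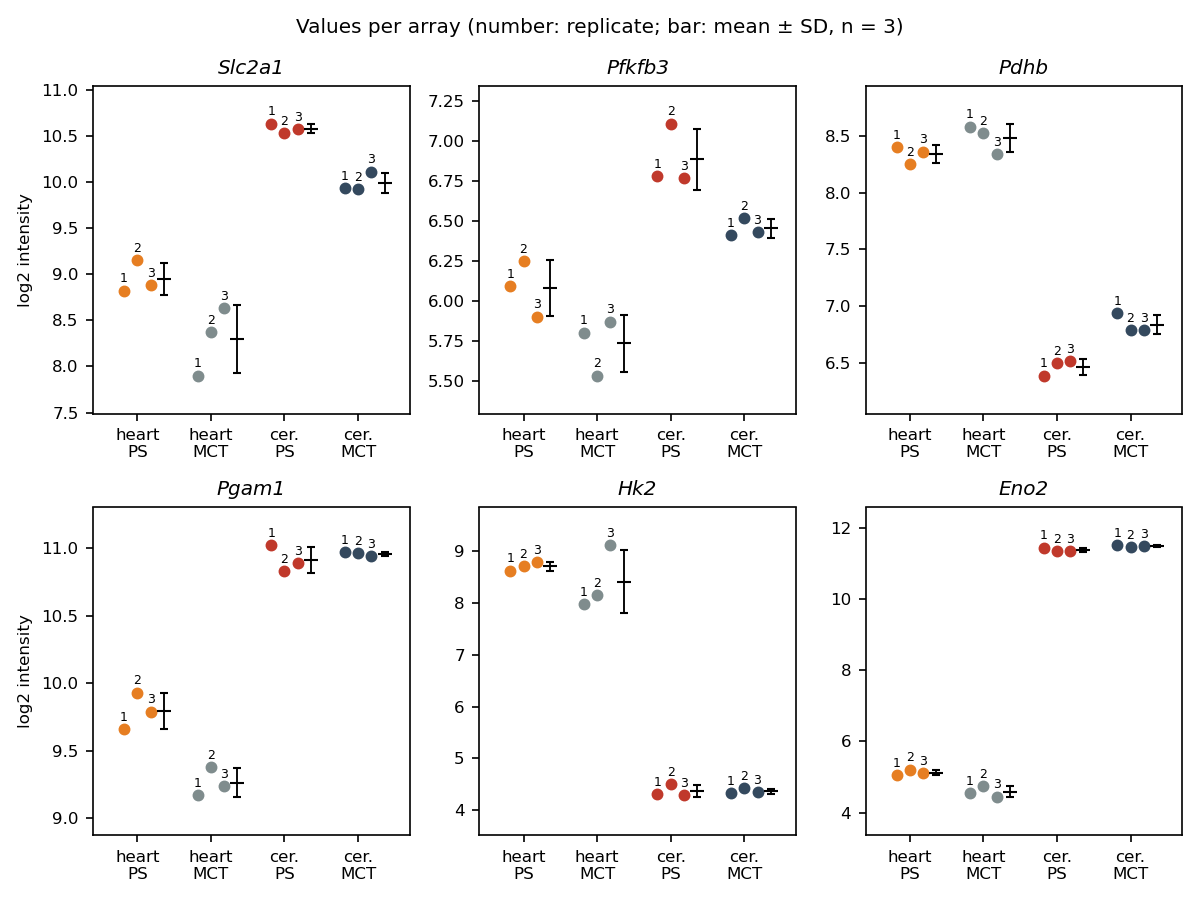
log2 intensity (y axis) on each of the 12 arrays for 6 members, in heart PS, heart MCT, cerebrum PS and cerebrum MCT (x axis). Numbers beside points are replicates, and bars are means ± SD (n = 3). Slc2a1 lies higher in PS than in MCT in both tissues without overlap, Pdhb lower in PS cerebra, and Hk2 in MCT hearts has 1 array at 9.12 above all PS hearts.

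In heart, 0 of 28 members tested were past the threshold by limma, against 0.269% of 11136 genes (0.162% higher and 0.108% lower), while 7 members had an unadjusted p under 0.05 (23.5% of all genes). Pfkfb4 and Eno2 were below the filter. The members leaned upward: 22 of 28 differences were positive (59.9% of all genes), their median was 0.20 beside 0.08 over all genes, and PS and MCT arrays did not overlap for 11 members that were higher and 1 that was lower (18.2% and 10.1% of all genes). The median deviation of the members from the mean of the 3 MCT hearts was 0.22, 0.18 and 0.17 on the PS arrays, against -0.09, -0.02 and 0.13 on the MCT arrays, so MCT array 3 lay close to the PS arrays.

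Pgam1 had the lowest p in heart. It read 9.66, 9.93 and 9.79 in PS hearts, against 9.17, 9.38 and 9.24 in MCT hearts, without overlap, and the difference was 0.53 ± 0.13 (adjusted p = 0.120), with 0.51 to 0.53 over its 3 transcript clusters. Slc2a1 read 8.82, 9.15 and 8.88 in PS hearts, against 7.90, 8.37 and 8.63 in MCT hearts, also without overlap, at 0.65 ± 0.20 (adjusted p = 0.137). Pdk3, an X-linked gene, read 5.74, 5.93 and 5.66 in PS hearts, against 5.43, 5.50 and 5.30 in MCT hearts, at 0.37 ± 0.13 (adjusted p = 0.156). Each of the 3 separated the groups on all 6 arrays and missed the threshold. Pfkm read 11.19, 11.16 and 11.22 in PS hearts, against 10.60, 10.76 and 11.08 in MCT hearts, at 0.38 ± 0.15 (adjusted p = 0.181). Hk1 read 9.87, 10 and 9.96 in PS hearts, against 9.11, 9.35 and 9.89 in MCT hearts, at 0.49 ± 0.20 (adjusted p = 0.187). For both, MCT array 3 was the highest MCT array and near the PS values. Endothelial markers averaged 8.82, 9.11 and 8.91 in PS hearts, against 8.22, 8.50 and 8.64 in MCT hearts, and smooth muscle and pericyte markers 8.04, 8.50 and 8.10, against 7.30, 7.45 and 7.81, so vessel markers moved with the same arrays and their part was not tested.

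Without MCT array 3, 9 members were higher and 1 lower, against 13.8% and 12% of the 11137 genes then tested (25.8% in either direction). Along the pathway these were the transporter Slc2a1 (0.82), the hexokinases Hk1 (0.71) and Hk2 (0.65), the phosphofructokinase subunits Pfkm (0.51) and Pfkl (0.68), then Aldoa (0.35), Pgam1 (0.52), Eno2 (0.47) and Pkm (0.39). Eno2 was below the filter on low values with all heart arrays. Without MCT array 3 it passed, with 4.55 and 4.75 in the remaining MCT hearts, so it adds nothing to the count. Mpc1 was lower, by -0.36. Hk2, called without that array, read 8.63, 8.71 and 8.79 in PS hearts, against 7.98, 8.15 and 9.12 in MCT hearts, and with all arrays the difference was 0.29 (95% interval -0.34 to 0.93). Leaving out each other heart array in turn gave 0 members past the threshold. With both arrays of high Myl7 left out, MCT 3 and PS 3, 2 members were higher and 0 lower, against 3.57% and 4.91% of all genes (8.49% in either direction). They were Hk1, by 0.71 (limma adjusted p = 0.0459), and Hk2, by 0.61 (adjusted p = 0.04999, at the threshold). That omission was chosen after seeing the data and left 2 arrays per group. The calls in heart thus depended on MCT array 3, which also had the highest atrial marker mean, 7.35, against 6.21 and 6.41 on the other MCT hearts and 5.92, 6.35 and 6.96 in PS hearts. With the atrial marker mean as a covariate, 0 of 28 members were past the threshold and 10 had an unadjusted p under 0.05.

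The 6 members with a negative difference in heart were Pfkfb2 (-0.03), Pgam2 (-0.12) and, of pyruvate use, Pdk1, Mpc1, Pdhb and Pdhx. Pdk1 read 9.02, 9.08 and 8.95 in PS hearts, against 9.21, 9.13 and 9.36 in MCT hearts, the only member whose PS arrays all lay below the MCT arrays, at -0.22 ± 0.12 (adjusted p = 0.286). Mpc1 differed by -0.25 (adjusted p = 0.275) and by 0.11 on its second transcript cluster, so its direction depends on the probes. Pdhb differed by -0.14, Pdhx by -0.13, Dld by 0.14 and Dlat by 0.20, with a median near 0 for the complex, and none was past the threshold. Slc2a4, the insulin-responsive transporter, differed by 0.19 (95% interval -0.18 to 0.57).

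**Figure D3:**
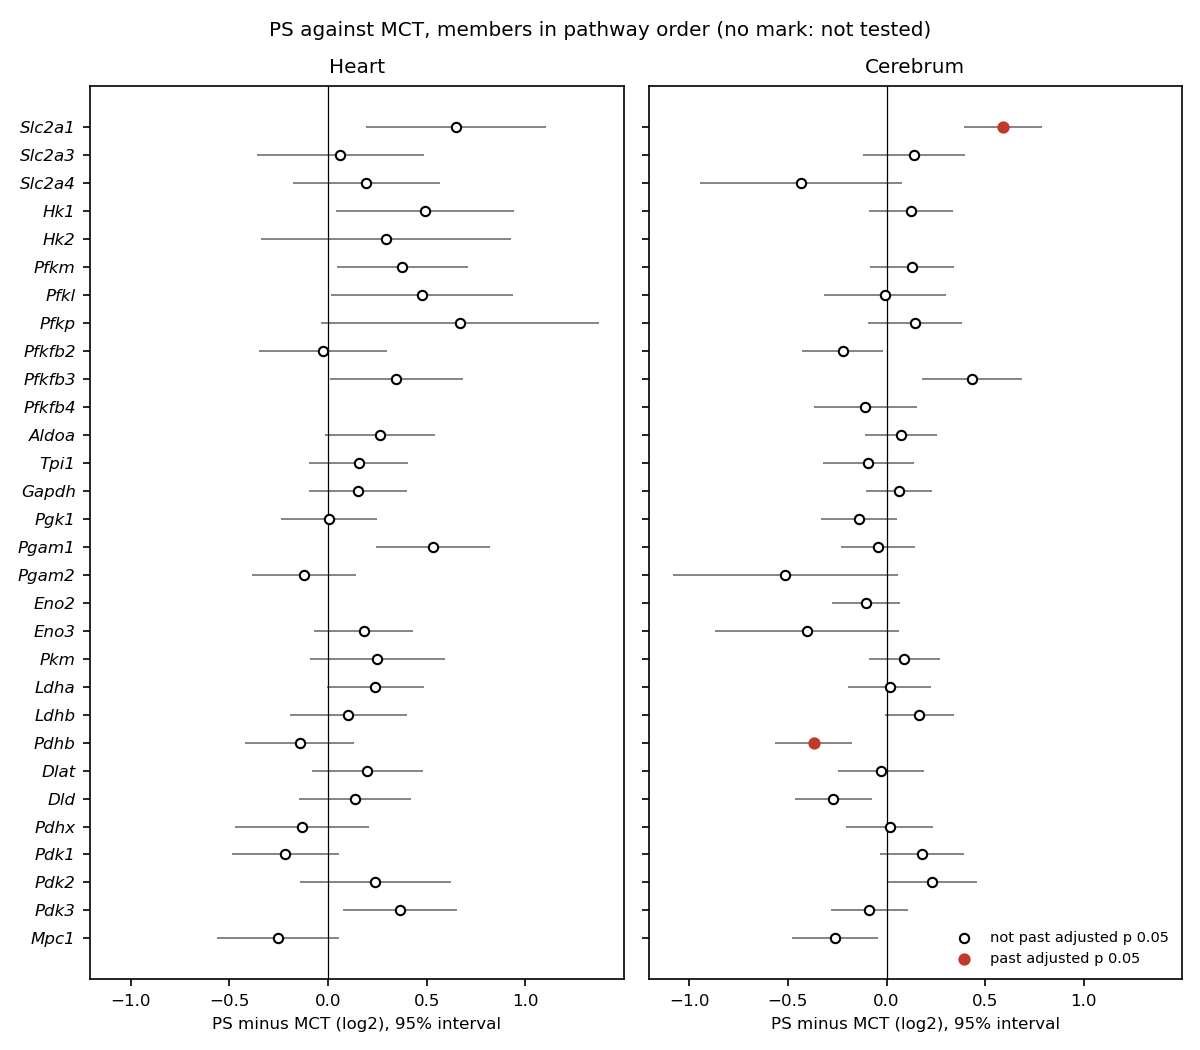
Difference PS minus MCT (log2, x axis) with 95% intervals from limma for the members in pathway order (y axis), in heart (left, 28 tested) and cerebrum (right, 29 tested). Filled red marks are past adjusted p 0.05: Slc2a1 and Pdhb in cerebrum, and 0 in heart. In heart, 22 of 28 points lie right of 0.

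**Figure D4:**
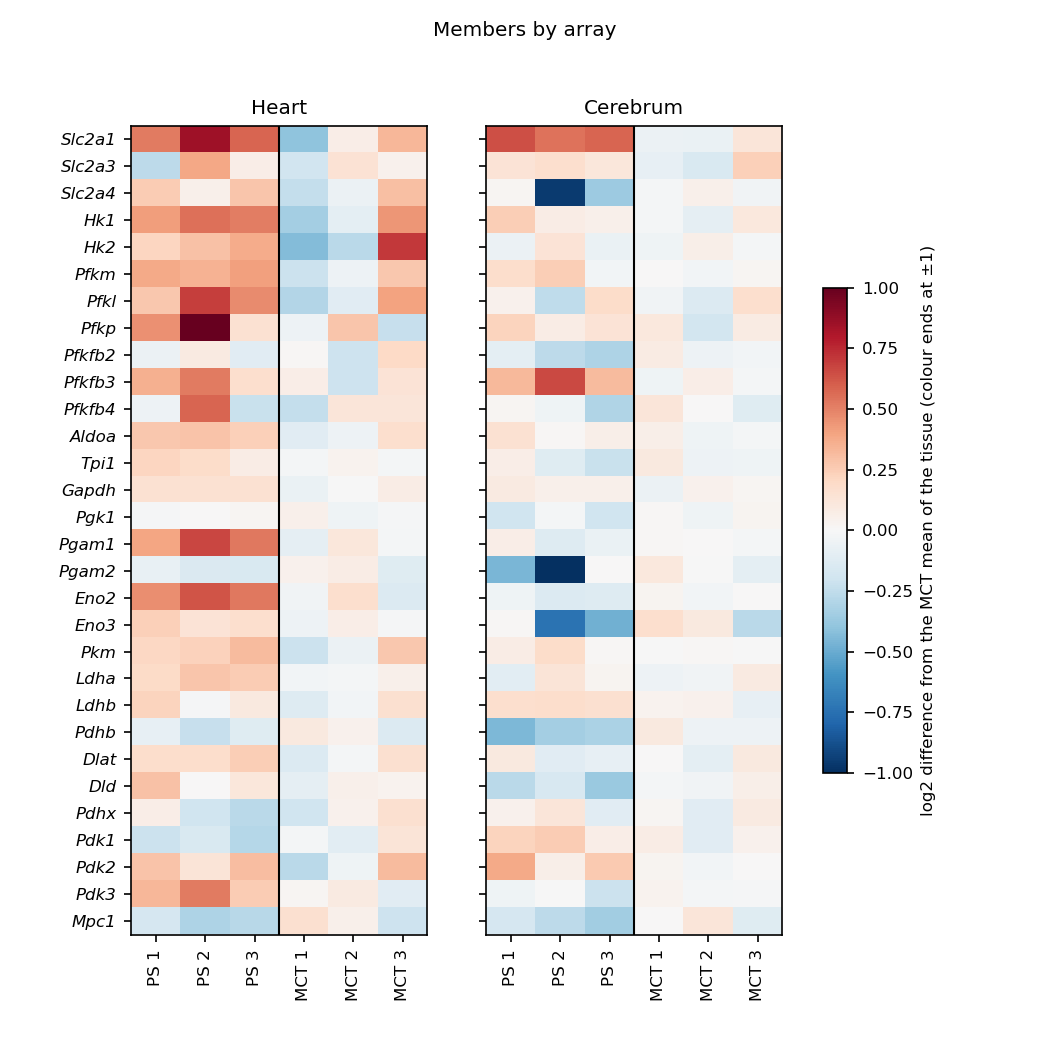
Difference of each array from the mean of the 3 MCT arrays of its tissue (log2, colour, red higher and blue lower, ending at ±1) for the members in pathway order (rows) and arrays (columns), with heart on the left and cerebrum on the right and PS left of MCT. The 3 PS hearts are red for most members, and so is MCT heart 3 for Hk1, Hk2 and Pfkl.

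The PS effect was then compared between the tissues, over all 12 arrays in 1 fit, as the effect in heart minus that in cerebrum. Of 30 members, 1 was higher and 0 lower, against 1.1% and 0.428% of 11215 genes (1.52% in either direction), and 6 had an unadjusted p under 0.05 (19.6% of all genes). Differences were positive for 25 of 30 members (60.6% of all genes), with a median of 0.23 beside 0.08. The gene past the threshold was Eno2, at 0.64 ± 0.14 (adjusted p = 0.0450). It passed the filter of this fit only through its high level in cerebrum and was below the filter in the fit of heart alone. In heart it read 5.05, 5.21 and 5.11 in PS mice, against 4.55, 4.75 and 4.45 in MCT mice, and in cerebrum 11.45, 11.35 and 11.36 in PS mice, against 11.52, 11.46 and 11.49 in MCT mice. Neither tissue showed overlap, and the directions were opposite, but the heart values were all below the filter on low values of this fit. The call held in 2 of 12 omissions of an array, those of MCT hearts 2 and 3. Pgam1 was next, at 0.57 ± 0.14 (adjusted p = 0.0682), followed by Pdk3 at 0.45 (adjusted p = 0.121), Dld at 0.41 (adjusted p = 0.155) and Pdk1 at -0.40 (adjusted p = 0.161), none past the threshold. For Slc2a1 the difference between tissues was 0.06 ± 0.23 (95% interval -0.43 to 0.55), so its 0.65 in heart, not past the threshold there, and 0.59 in cerebrum were not distinguishable at this precision.

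Related genes outside the list, 97 named and 92 measured, covered other isozymes and transporters, lactate transport, glycogen, the pentose phosphate pathway, gluconeogenesis, NADH shuttles and regulators. Between the tissues, 46 of 73 tested were higher in heart and 12 lower in PS mice, and 44 and 17 in MCT mice, beside 37.6% and 39.1% of all genes in PS mice and 34.2% and 42% in MCT mice. Glycogen genes made up 15 higher and 1 lower of 19 in PS mice and 14 higher and 2 lower of 19 in MCT mice. Ppp1r3a, the glycogen-targeting subunit of protein phosphatase 1 in muscle, led them (6.20 and 5.75). It read 3.44 to 4.03 in the cerebra, so it passed the filter only through heart, and its sizes are a description. Aldoc, the brain aldolase and isozyme counterpart of Aldoa, was lower in heart by -6.92 and -6.97. It read 4.4 to 5.28 in the hearts and passed the filter through cerebrum, so this too is a description.

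In cerebrum under PS, 1 of 73 related genes was higher and 2 were lower, near the 1.94% and 3.92% of all genes. Slc16a1, the monocarboxylate transporter MCT1 that carries lactate, pyruvate and ketone bodies, read 7.84, 7.52 and 7.63 in PS cerebra, against 8.55, 8.25 and 8.22 in MCT cerebra, lower by -0.68 (adjusted p = 0.0349). Slc2a12, a further glucose transporter, read 5.04, 4.99 and 5.17 in PS cerebra, against 5.97, 6.34 and 5.67 in MCT cerebra, lower by -0.93 (adjusted p = 0.0343), with the PS values about at the filter of 5.04. H6pd, the hexose-6-phosphate dehydrogenase of the endoplasmic reticulum, read 5.58, 5.52 and 5.45 in PS cerebra, against 5.13, 5.16 and 5.24 in MCT cerebra, higher by 0.34 (adjusted p = 0.0489). None of the 3 overlapped between the groups. The calls of Slc16a1 and Slc2a12 were lost without MCT cerebrum array 1 or 2 or PS cerebrum array 1 or 2, and with the replicate block, the striatal covariate or all transcript clusters tested, and that of H6pd held in 1 of 6 omissions, that of PS array 3. The oligodendrocyte and striatal markers given above were also lower in PS cerebra as a group, and their part was not tested. In heart, 0 of 72 were past the threshold by limma and 19 had an unadjusted p under 0.05, beside 23.5% of all genes. Without MCT heart array 3, 13 of 73 were higher and 0 lower, beside 13.8% and 12% of all genes. With all heart arrays, p was lowest for Gpd2, of the glycerol phosphate shuttle (0.69, limma adjusted p = 0.122). Foxo1, a transcription factor restrained by insulin, followed (0.60, adjusted p = 0.134). Next came Ppargc1a, a coactivator of mitochondrial genes (0.61, adjusted p = 0.137), and Pgm2l1 (0.40, adjusted p = 0.149).

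The PS effect differed between heart and cerebrum for 3 of 73 related genes, all higher in heart, beside 1.1% higher and 0.428% lower of all genes. For Slc16a1 the difference was 0.94 (adjusted p = 0.0214), with 10.59, 10.56 and 10.66 in PS hearts, against 10.24, 10.38 and 10.40 in MCT hearts. For Foxo1 it was 1.33 (adjusted p = 0.0434), with 7.37, 7.89 and 7.56 in PS hearts, against 6.77, 7.01 and 7.23 in MCT hearts, and 6.67, 6.62 and 7.39 in PS cerebra, against 7.51, 7.70 and 7.65 in MCT cerebra. For Pgd, phosphogluconate dehydrogenase of the pentose phosphate pathway, it was 0.73 (adjusted p = 0.0463), with 8.08, 8.38 and 8.16 in PS hearts, against 7.72, 7.91 and 7.85 in MCT hearts, and 7.57, 7.46 and 7.32 in PS cerebra, against 7.68, 7.80 and 7.93 in MCT cerebra. The call held in 8 of 12 omissions of an array for Slc16a1, in 3 for Foxo1 and in 1, that of MCT heart 3, for Pgd. Without MCT cerebrum array 1, MCT cerebrum array 2, PS cerebrum array 2 or PS heart array 3, 0 of the related genes were called, and 12 were without MCT heart array 3. In all 3 the hearts lay higher and the cerebra lower with PS, without overlap within either tissue. Foxo1 on PS cerebrum array 3, 7.39, lay near the MCT values, the array whose striatal markers were also closest to them.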

How the data were processed

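Total RNA of heart and cerebrum was hybridised to Affymetrix whole-transcript arrays, 3 per group, per the labels' protocols. Per the submitters' processing notes the authors used Affymetrix Expression Console, and they deposited 1 value per transcript cluster and array, taken here as log2 intensity from its range (1.90 to 13.11). Not given in the sources used here were its version, its settings and the genome build. Deposited values were not scaled again, so a change common to all transcripts could not be seen.

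Of 35556 transcript clusters, 21218 carried 1 symbol in GEO's platform annotation and were used. limma 3.58.1 (lmFit, eBayes, R 4.3.3) tested those whose mean over the arrays fitted reached their 40th percentile, with Benjamini-Hochberg adjustment and a threshold of 0.05. A gene with several clusters was given by the brightest. The code was tested on simulated data. The members, lists, tests and alternatives were chosen with earlier results of these data known. Values per array were given for members past the threshold for PS, the 5 of lowest p in each PS comparison, the 8 with the largest tissue difference in each direction, and a few others chosen after their values were seen. Alternatives covered scaling, filters, transcripts tested, variance model, blocks, covariates and leaving out each array.

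Nothing says that replicate numbers mark a mouse. The deviations of same-numbered heart and cerebrum arrays of MCT mice correlated at 0.114, 0.102 and 0.287 over transcripts, which met the rule for pairs. Different numbers reached 0.191. Those of PS mice correlated at 0.115, 0.098 and 0.054, and different numbers reached 0.026. PS heart array 2 and PS cerebrum array 2 differed in Xist pattern, however, so as labelled that number does not mark 1 mouse. The fits reported have no block, and among the members a blocked p is given only for Hk1. With the block, Slc2a1 and Pdhb lost their calls in cerebrum, as did Eno2 in the test between tissues. Of the related genes, Slc16a1, Slc2a12 and H6pd lost theirs in cerebrum (H6pd: limma adjusted p = 0.138). In the test between tissues Pgd lost its call (limma adjusted p = 0.0601), while Slc16a1 and Foxo1 kept theirs. The sample titles call the arrays of a group biological replicates, and the series text gives 3 PS and 3 MCT mice, but no label names an array's mouse. Hearts and cerebra may thus come from the same mice, a pairing that fits without a block leave out. The p-values measure the spread between these arrays. Their number limits the precision.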

Additional observations from a re-analysis of the deposited data

Results flagged for a closer look

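Eno2, the neuronal enolase, was singled out because its PS effect differed between the tissues by a test of the difference itself, 0.643 on the log2 scale, heart minus cerebrum (limma adjusted p = 0.0450). It passed the filter on low values only through cerebrum, and in heart, where most of the difference lay, it was below the filter of the fit of heart alone. It averaged 5.12 ± 0.08 in PS hearts and 4.58 ± 0.15 in MCT hearts, and 11.39 ± 0.06 in PS cerebra and 11.49 ± 0.03 in MCT cerebra (SD, n = 3 each). The difference lay between 0.58 and 0.73 under the 21 alternatives tried, with adjusted p between 0.0187 and 0.133, and 9 of them kept the call. Without MCT heart array 3, Eno2, Hk1, Hk2 and Pgam1 were past the threshold. Sex pattern, treatment and array composition coincide in these groups and their parts were not tested.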

How the results depend on the processing

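The tissue counts stayed similar over 16 alternatives each. In heart, 16 to 19 members were higher and 6 to 8 lower in PS mice, and 14 to 16 higher and 6 to 10 lower in MCT mice. The 16 members named for the size of their tissue difference kept direction and call wherever they were tested. They were chosen by that size in these same data, so this adds no support. Hk2, Eno2, Pfkfb4 and, in PS mice, Slc2a4 also passed the filter only through heart or only through cerebrum. Hk2, Pfkfb3 and Pfkfb4 were below the filter at the 60th percentile, and Pfkfb4 also without MCT cerebrum array 1 or 2 or PS cerebrum array 1. In PS mice Pfkl kept its call in 13 and Pgk1 in 11 of 16. No named member turned direction in any alternative of any comparison. In cerebrum, the count of higher and lower members, 1 and 1, became 1 and 0 with quantile normalization, without the filter, with a filter at the 60th percentile and with all transcript clusters tested. It became 0 and 0 with the replicate block, with all 12 arrays in 1 fit and with the striatal covariate, 2 and 3 with array weights, and 2 and 2 on PS array 2 alone, an alternative chosen after seeing the data. Leaving out 1 array gave 0 to 2 higher and 0 to 2 lower. In heart, 0 and 0 became 3 and 0 with all 12 arrays in 1 fit (Pdk3, Pgam1 and Slc2a1), 15 and 3 with array weights, whose estimation did not converge and which called 6987 transcripts, 2 and 0 without both arrays of high Myl7 (chosen after seeing the data), and 0 to 9 higher and 0 to 1 lower with 1 array left out, the highest without MCT array 3. In the test of heart against cerebrum for the PS effect, the 1 higher member (Eno2) became 2 with arrays centred on medians and with an intensity trend (Eno2 and Pgam1), 0 with all transcript clusters and with the replicate block, and 0 to 4 with 1 array left out. Centring put the median of all transcripts at 0.12 there. Correlations of same-numbered PS and MCT arrays were 0.113, -0.15 and -0.263 in cerebrum and 0.032, 0.086 and 0.122 in heart, so numbers do not pair these. Except where a setting tests more or fewer transcripts or arrays, the cause of a moved count was not tested. With 3 arrays a group, a p that misses the threshold does not show equal expression.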
